A study of Homo sapiens with 10 samples.

Results

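The numbered zinc finger genes carry symbols made of ZNF and a number, and 516 of them stood among the 23089 genes counted in U2OS cells, a human osteosarcoma line. A gene was taken as a well-expressed member when its mean over the 4 control libraries reached 10 CPM (the count as parts per 1000000 of the library total), and 283 of the 516 genes met this rule. The members were thus chosen by their control levels, which are given as a description, and every comparison with the controls uses again the libraries that chose them. All 283 members passed the filter on low counts in each comparison, and the lowest count of any member in any library was 70.

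Strand-specific sequencing of total RNA was made from U2OS cells 3 days after transfection with siRNAs, to learn which genes depend on each isoform of the histone variant H2A.Z. The groups are siCtrl 3 and siCtrl 4 (control siRNAs), siH2A.Z1, siH2A.Z2, and both of the latter together (siH2A.Z1 and siH2A.Z2, the combined depletion), with 2 libraries each and 10 in all. All 5 groups were transfected with siRNA, and no group of untransfected cells was analysed here. Each isoform was targeted through RNA interference, and for H2A.Z.1 the study lists a single siRNA, so that the loss of the histone and other effects of that siRNA cannot be told apart. By the study's methods the libraries come from samples transfected side by side, so p-values measure the spread between such samples and not between experiments of different days. In bulk RNA, fewer cells expressing a gene and less RNA per cell cannot be told apart.

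Most ZNF proteins bind DNA through arrays of C2H2 zinc fingers, in which cysteine and histidine pairs hold a zinc ion. Many also carry a KRAB box near the amino terminus, which recruits the corepressor TRIM28 and, through it, the histone H3K9 methyltransferase SETDB1, and a main known task of KRAB zinc finger proteins is the silencing of transposable elements. Their genes arose by tandem duplication and lie in clusters, above all on chromosome 19, while H2A.Z is a variant of histone H2A found around the start sites of many genes and is encoded by H2AFZ (H2A.Z.1) and H2AFV (H2A.Z.2).

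The guide strand of the H2A.Z.1 siRNA is shown first because a guide can also lower other RNAs through its seed, positions 2 to 8 from its 5′ end, which are in capitals. It was derived as the complement of the 19 bases that the study lists.

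H2A.Z.1 siRNA guide: cUCAAUCAaaacccacuac

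A perfect match to this seed, the letters TGATTGA in the transcript, was found in 53 members and was not found in the other 230 members.

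The next sequences are the 250 bases before the annotated start of ZNF548, ZNF419 and ZNF528, the 3 KRAB-box members with the largest rise with siH2A.Z1 among those that hold the letters CCGGAAG there, so they illustrate the letters and not how often they occur. Capitals mark the letters CCGGAAG, or CTTCCGG where they lie on the other strand, a core that occurs in binding sites of ETS-family transcription factors such as GABPA. The windows are from RefSeq on GRCh38.p14, on the plus strand, at chr19:57389604-57389853 for ZNF548, chr19:57487500-57487749 for ZNF419 and chr19:52397599-52397848 for ZNF528.

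ZNF548: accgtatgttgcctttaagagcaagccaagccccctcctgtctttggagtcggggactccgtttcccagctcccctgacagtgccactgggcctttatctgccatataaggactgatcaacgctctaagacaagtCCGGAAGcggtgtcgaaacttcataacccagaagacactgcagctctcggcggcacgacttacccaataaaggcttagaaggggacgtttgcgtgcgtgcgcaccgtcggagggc

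ZNF419: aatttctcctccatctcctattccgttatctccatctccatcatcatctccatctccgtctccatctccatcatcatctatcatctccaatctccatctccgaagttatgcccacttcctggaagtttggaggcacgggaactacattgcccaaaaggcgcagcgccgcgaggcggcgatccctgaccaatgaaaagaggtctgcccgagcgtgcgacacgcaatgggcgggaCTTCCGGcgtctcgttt

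ZNF528: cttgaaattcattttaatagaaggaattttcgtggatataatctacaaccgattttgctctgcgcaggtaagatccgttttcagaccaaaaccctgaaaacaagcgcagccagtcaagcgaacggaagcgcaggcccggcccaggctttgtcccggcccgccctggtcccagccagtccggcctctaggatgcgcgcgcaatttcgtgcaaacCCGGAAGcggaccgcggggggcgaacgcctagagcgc

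Over windows of 300 bases (250 before to 50 after the start, both strands searched), these letters were present in 53.5% of the 142 KRAB members with a promoter in the table and in 36.7% of the 98 members without a KRAB box. They were present in 30.5% of 177 numbered ZNF genes below the threshold, in 17.8% of the 11945 tested genes with a promoter and in 10.7% of all 27305 promoters. The match is a description of letters and not a mapped site of any factor.

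Translated coding sequences gave a KRAB box match in 159 members and none in 120, and the other 4 members had no coding sequence. On chromosome 19 lay 116 members (41.0%), 97 of them with a KRAB box and 17 without, and the remaining members were spread over the other 20 of 21 chromosomes. The KRAB members had a median of 13 C2H2 fingers and the members without KRAB a median of 7, with up to 36 in one protein. Transcripts of the members were poorer in G and C (median 43.1%) than those of all tested genes (48.3%).

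Control levels ranged from 10.1 to 390 CPM with a median of 24.6. ZNF106, which binds RNA, was highest at 390 CPM, followed by ZNF638 at 266, ZNF207 at 225, ZNF609 at 192 and ZNF655 at 181. ZNF207 encodes BuGZ, a spindle assembly checkpoint protein that stabilises BUB3. Per kilobase of transcript the control levels ran from 1.28 to 42.5 CPM with a median of 5.99, and ZNF410, an activator of CHD4, was highest. On the same per-kilobase scale the KRAB members had a median of 5.06 and the members without KRAB a median of 8.54. At the threshold, ZNF701 and ZNF79 (both 10.05 CPM) and ZNF174 (10.08 CPM) were the lowest members, and ZNF138 (9.95 CPM), ZNF136 (9.94 CPM) and ZNF232 (9.92 CPM) lay just below it.

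Library totals were between 16716990 and 26946836 counts. The bone-lineage genes COL1A1 (373 to 1404 CPM), SPARC (1556 to 2128 CPM) and RUNX2 (10.8 to 22.8 CPM) were detected. Others of that lineage were low, with COL1A2 at 0.190 to 1.25 CPM, ALPL at 0.402 to 8.11 CPM and SPP1 at 1.21 to 9.93 CPM. The osteoblast genes SP7 and BGLAP had at most 2 and 8 counts in a library. The epithelial marker KRT8 was at 68.5 to 152 CPM, and EPCAM at 1.32 to 2.89 CPM. The blood marker PTPRC, the liver marker ALB and the endothelial marker PECAM1 had at most 23, 11 and 24 counts. From here on, CPM values are scaled by library size and TMM factor, and differences are log2 fold changes with their standard error (SE) from edgeR's quasi-likelihood test. A gene was called up or down at an adjusted p under 0.05 (Benjamini-Hochberg, over all genes tested) and a fold change above 1.25. The targeted H2AFZ was at 204 to 279 CPM in the controls, 19.1 and 19.6 CPM with siH2A.Z1, and 22.1 and 22.5 CPM in the combined depletion. For siH2A.Z1 this was a log2 change of -3.67 (SE 0.19, edgeR adjusted p = 0.000245). H2AFV was at 239 and 248 CPM with siCtrl 3 but 143 and 147 CPM with siCtrl 4, and at 63.8 and 65.4 CPM with siH2A.Z2. Its change with siH2A.Z2 was -1.59 (SE 0.28, edgeR adjusted p = 0.0754), which did not pass the threshold.

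**Figure D1:**
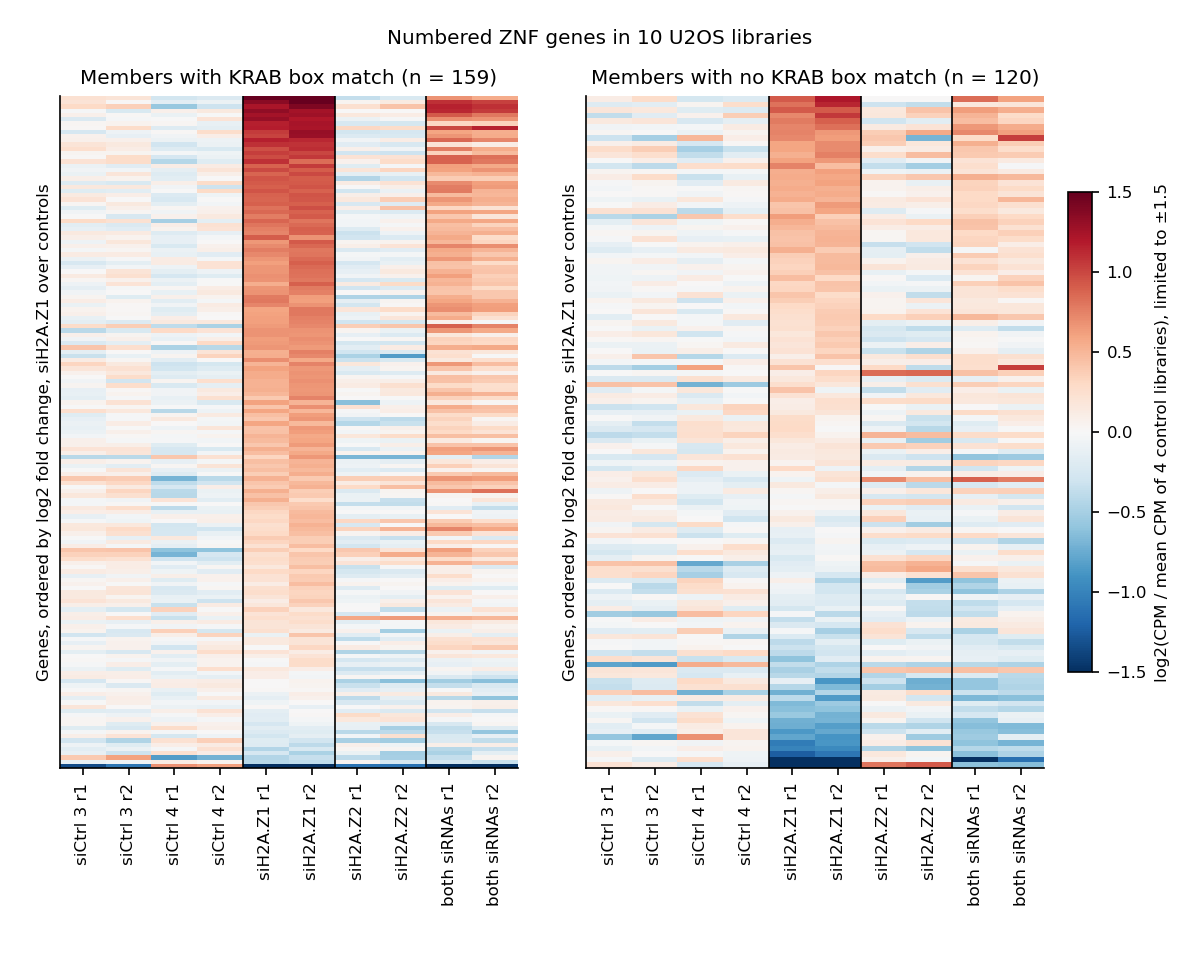
Heat map of the 159 members with a KRAB box (left) and the 120 without (right) over the 10 libraries (columns), with genes in rows ordered by their change with siH2A.Z1. Colour gives the log2 ratio of the CPM to the mean of the 4 controls, limited to 1.5 in either direction, and most KRAB rows are higher in both siH2A.Z1 libraries, where 87 members rose and 0 fell.

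With siH2A.Z1, 117 of the 283 members rose against the controls and 11 fell, where 12.2% of all tested genes rose and 15.7% fell. The median member had a log2 fold change of 0.36, against -0.02 over all genes tested, and 218 members had a value above 0. The rises were more frequent among the KRAB members, of which 87 of 159 rose and 0 fell, with a median of 0.53. Of the 120 members without KRAB, 29 rose and 11 fell, with a median of 0.15. At an unadjusted p under 0.05, 101 KRAB members were higher and 2 were lower, and DESeq2 called 92 up and 1 down. Both siH2A.Z1 libraries were above all 4 controls for 171 members and below them for 27, where 27.0% and 27.3% of all tested genes were so placed. The numbers of calls depended on the siH2A.Z1 libraries, and leaving out either one left fewer calls among members and among all tested genes. Without replicate 1 the median change was 0.41 for members, 0.59 for KRAB members and -0.02 for all tested genes. Without replicate 2 these medians were 0.34, 0.495 and 0.00.

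Summed over the KRAB members, the level was 4469 to 4804 CPM in the 4 control libraries, 6683 and 7036 CPM with siH2A.Z1, 4439 and 4566 CPM with siH2A.Z2, and 5936 and 5686 CPM in the combined depletion. The siH2A.Z1 and combined libraries thus lay above all controls, and the combined libraries below those with siH2A.Z1 alone. Summed over the members without KRAB, the values were 6496 to 6766 CPM in the controls and 6755 and 7052 CPM with siH2A.Z1. They were 6912 and 6991 CPM with siH2A.Z2, both above all controls, and 6836 and 6728 CPM in the combined depletion.

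ZNF548, a KRAB member at chr19:57389850-57402992 on hg38, had the largest rise. It was at 34.6 and 33.9 CPM with siCtrl 3, 24.5 and 25.6 CPM with siCtrl 4, 92.7 CPM in both siH2A.Z1 libraries, 23.1 and 25.4 CPM with siH2A.Z2, and 47.2 and 43.6 CPM in the combined depletion. Both siH2A.Z1 libraries were far above the other 8 libraries, and both combined libraries were also above all controls. The log2 fold change with siH2A.Z1 was 1.64 (SE 0.17, edgeR adjusted p = 0.00122).

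ZNF84, a KRAB member at chr12:133037292-133063304, was at 40.7 and 35.6 CPM with siCtrl 3, 31.5 and 33.1 CPM with siCtrl 4, and 89.7 and 99.5 CPM with siH2A.Z1. It was at 36.2 and 38.7 CPM with siH2A.Z2 and at 75.2 and 71.9 CPM in the combined depletion. The siH2A.Z2 values overlapped the controls, and the other depletions did not. The change with siH2A.Z1 was 1.42 (SE 0.13, edgeR adjusted p = 0.000812). Its neighbours ZNF26 and ZNF268 at the same end of chromosome 12 also rose, by log2 fold changes of 1.25 and 0.71.

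ZNF699, on chr19:9291140-9309838, was at 14.1 to 18.4 CPM in the controls, 41.7 and 39.3 CPM with siH2A.Z1, 16.7 CPM in both siH2A.Z2 libraries, and 36.1 and 34.2 CPM in the combined depletion. Its change with siH2A.Z1 was 1.29 (SE 0.13, edgeR adjusted p = 0.00118). ZNF850, with 29 fingers, was at 33.0 and 34.3 CPM with siCtrl 3, 18.1 and 21.5 CPM with siCtrl 4, and 62.4 and 70.4 CPM with siH2A.Z1. It thus differed between the control siRNAs and still lay above both of them after siH2A.Z1, with a log2 fold change of 1.31 (SE 0.27, edgeR adjusted p = 0.0133). This call was lost without siH2A.Z1 replicate 1 (adjusted p = 0.0726) or replicate 2 (adjusted p = 0.105). ZNF417, which binds endogenous retroviruses of the HERV-K type, was at 25.2 ± 1.30 CPM (SD, n = 4) in the controls and 60.3 ± 0.602 CPM (SD, n = 2) with siH2A.Z1, a change of 1.26. Of the ZNF417 transcript, 30.5% also occurs in transcripts of other genes, so some reads may not be assignable to it alone. ZNF587, its close paralogue, rose by 0.76.

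**Figure D2:**
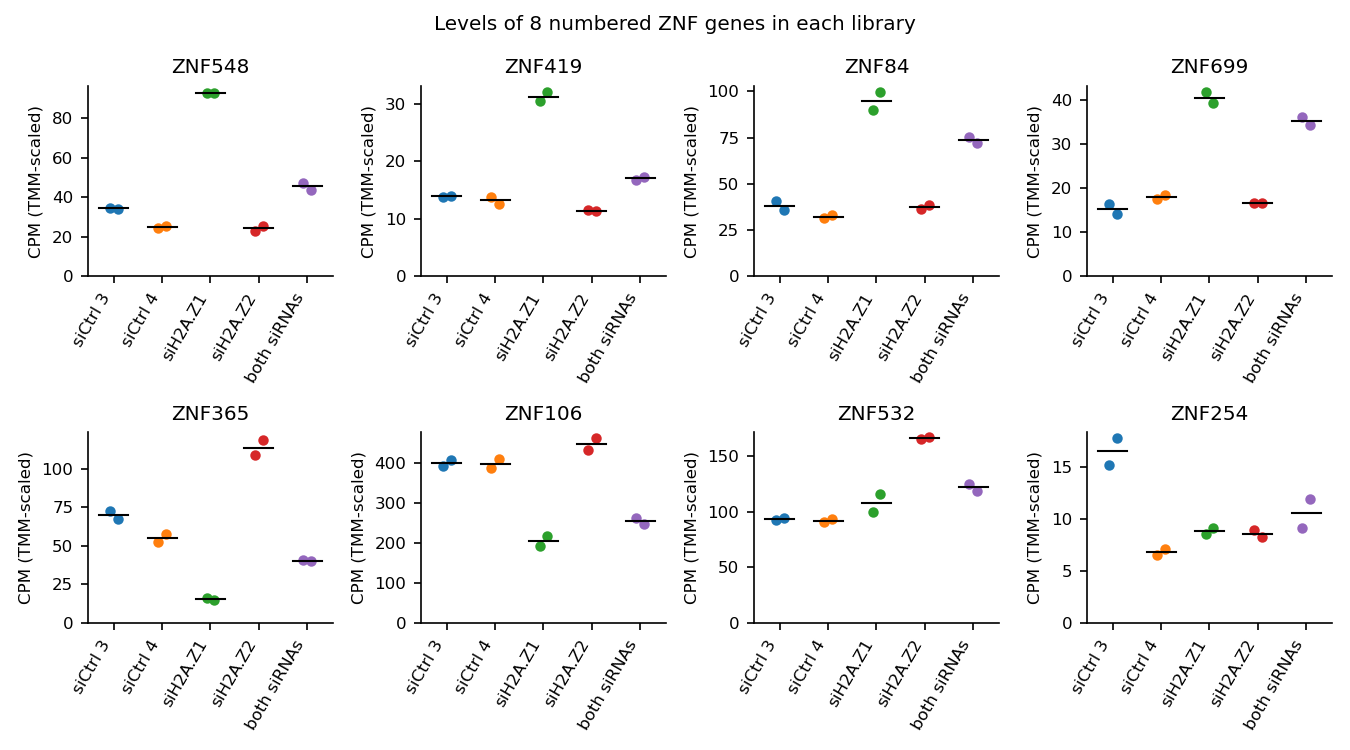
CPM (vertical axis from 0, scaled by TMM) of 8 members in each of the 10 libraries, with a point per library and a line at each group mean. ZNF548, ZNF419, ZNF84 and ZNF699 are highest with siH2A.Z1, ZNF365 and ZNF106 are lowest there, ZNF532 is highest with siH2A.Z2, and ZNF254 is highest with siCtrl 3.

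The 11 members that fell with siH2A.Z1 were ZNF106, ZNF318, ZNF358, ZNF365, ZNF385A, ZNF395, ZNF511, ZNF618, ZNF704, ZNF710 and ZNF827, and none of them had a KRAB box. The KRAB member ZNF114, described below with the control siRNAs, had a log2 fold change of -2.31 that was not called. Among the called members ZNF365, linked to telomere and genome stability, had the largest fall. It was at 72.5 and 67.3 CPM with siCtrl 3, 52.4 and 57.4 CPM with siCtrl 4, 16.1 and 15.04 CPM with siH2A.Z1, 109 and 119 CPM with siH2A.Z2, and 40.8 and 39.9 CPM in the combined depletion. The 5 groups did not overlap, with the lowest values after siH2A.Z1 and the highest after siH2A.Z2. The change was -2.01 with siH2A.Z1 (SE 0.17, edgeR adjusted p = 0.000748), and 0.87 with siH2A.Z2, which did not pass the threshold (adjusted p = 0.0627).

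ZNF385A, an RNA-binding partner of p53, was at 20.97 ± 2.86 CPM (SD, n = 4) in the controls and 6.45 and 6.03 CPM with siH2A.Z1, a log2 change of -1.75. ZNF827, which recruits the NuRD remodelling complex to telomeres maintained without telomerase, as they are in U2OS, was at 67.7 to 74.6 CPM in the controls and 30.2 and 33.6 CPM with siH2A.Z1, a change of -1.16. ZNF618, a partner of UHRF2, fell by 0.98, and ZNF106, the most abundant member, fell by 0.97 on the log2 scale, from 386 to 410 CPM in the controls to 193 and 217 CPM. All 5 of these falls, and the rises of ZNF548, ZNF84, ZNF699 and ZNF417, were called again when any 1 of the 6 libraries was left out.

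Among the 97 KRAB members on chromosome 19, 60 rose and 0 fell with siH2A.Z1 (median 0.60), and among the 62 KRAB members elsewhere, 27 rose and 0 fell (median 0.39). The 17 chromosome 19 members without KRAB had 7 rises and 1 fall (median 0.21), and of the 103 members without KRAB on other chromosomes, 22 rose and 10 fell (median 0.15). The 845 tested genes of chromosome 19 outside the numbered ZNF family had 40 rises and 144 falls (median -0.22). The number of fingers divided the members in a similar way, since 106 of 223 members with 6 or more fingers rose and 3 fell (median 0.45), while 10 of 51 members with 1 to 5 fingers rose and 7 fell (median 0.03). Without a KRAB box but with 6 or more fingers, 21 of 70 members rose and 3 fell (median 0.21).

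Members on chromosome 19 were joined into 13 clusters wherever neighbours lay within 1.5 Mb. The last, at chr19:55605647-58431736, held 38 members, 30 with KRAB, and 26 of them rose with siH2A.Z1 (median 0.64) while 6 of 26 other tested genes in the same span rose and 2 fell (median 0.06). In the cluster at chr19:51571283-53580269, 15 of 29 members rose and 0 fell (median 0.47), and of 6 other tested genes there 2 rose and 0 fell (median 0.43). The cluster at chr19:42068477-44500524 had 10 rises among 14 members (median 0.70), whereas its 35 other tested genes had 2 rises and 2 falls (median -0.29). At chr19:34677639-37469275, 6 of 11 members rose (median 0.62) and of 45 other tested genes 6 rose and 4 fell (median 0.11), and 8 of those 11 members were lower with siCtrl 4 than with siCtrl 3.

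Among genes that are not numbered ZNF genes, the median change with siH2A.Z1 went from 0.08 at up to 40% GC in the transcript to -0.18 above 52%, so members and other genes were compared within ranges of GC, chosen after the values were seen. At 40 to 44% GC, the median change with siH2A.Z1 was 0.62 for KRAB members and 0.06 for genes that are not numbered ZNF genes. At 44 to 48% GC the medians were 0.67 and 0.00, and at 48 to 52% GC they were 0.49 and -0.03. Above 52% GC the KRAB members had a median of 0.11, and 2 of 10 rose. Of all 55 members in that range 5 rose and 6 fell. Of the 5821 genes there that are not numbered ZNF genes, 400 (6.87%) rose and 1120 fell. The part of GC content in the result was not tested further. By transcript length, the medians of KRAB members were 0.51 to 0.65 in the ranges above 2000 bases.

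**Figure D3:**
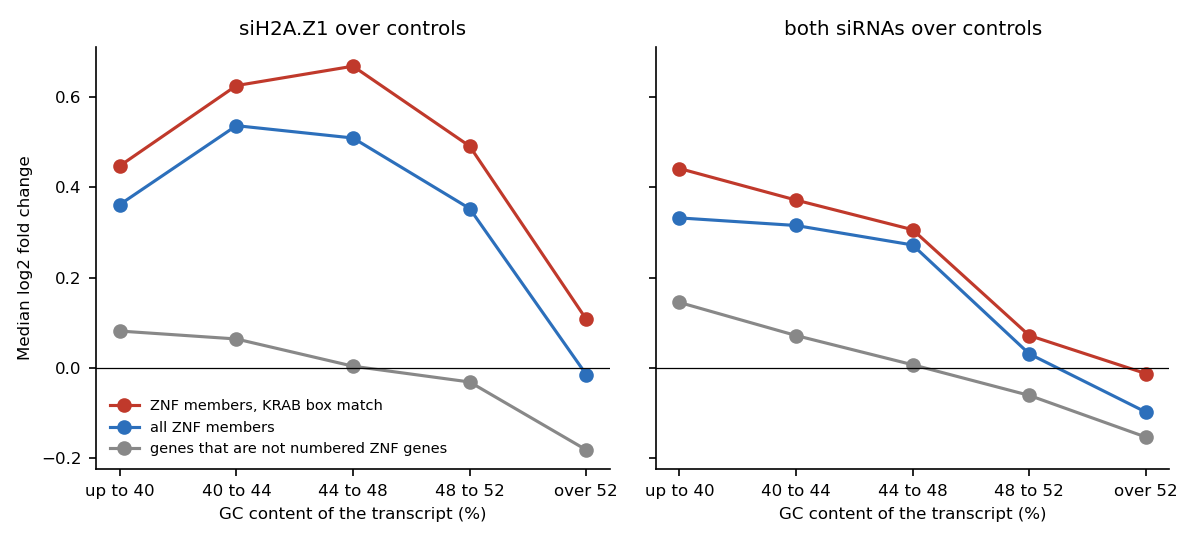
Median log2 fold change with siH2A.Z1 and in the combined depletion, against the controls, by range of transcript GC content (percent), for KRAB members, all members and genes that are not numbered ZNF genes. With siH2A.Z1 the KRAB members lie above the other genes in each of the 5 ranges, by the least above 52% GC.

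Members with a seed match to the H2A.Z.1 guide had 19 rises and 4 falls among 53 (median 0.29), and members without one had 98 rises and 7 falls among 230 (median 0.38). KRAB members with the CCGGAAG letters had 47 rises among 76 (median 0.61), and those with a promoter but without the letters had 32 among 66 (median 0.48), with 0 falls in either set.

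Of 42 listed ZNF genes with a known role, 37 were members. Of these, 12 rose and 4 fell with siH2A.Z1, where 117 and 11 of all 283 members and 12.2% and 15.7% of tested genes did. The rises included ZNF274 (0.40), which brings SETDB1 to the 3′ ends of ZNF genes themselves, ZNF263 (0.53), ZNF268 (0.71) and ZNF202 (0.66), all with a KRAB box. Without one, ZNF207 rose by 0.41, ZNF410 by 0.54, ZNF644, a partner of the H3K9 methyltransferases EHMT1 and EHMT2, by 0.57, and ZNF281 by 0.64 on the log2 scale. All 8 of these calls were lost without siH2A.Z1 replicate 2 (edgeR adjusted p = 0.0559 to 0.243), and those of ZNF202, ZNF207, ZNF263, ZNF274, ZNF281 and ZNF644 without its replicate 1 (0.0515 to 0.171). The calls of ZNF207, ZNF274 and ZNF644 were also lost without siCtrl 3 replicate 1, and those of ZNF207, ZNF281 and ZNF644 without siCtrl 4 replicate 2 (0.0504 to 0.0840), while the changes kept their direction. ZNF281 and ZNF644 were lower with siCtrl 4 than with siCtrl 3, by 0.48 and 0.41 on that scale. ZNF91, a repressor of SVA elements, had 22.9 and 25.7 CPM with siCtrl 3, 13.8 and 14.5 CPM with siCtrl 4, and 30.4 and 29.9 CPM with siH2A.Z1, and its change of 0.65 did not pass (edgeR adjusted p = 0.122). ZNF445, which guards genomic imprints, had a change of 0.32 that did not pass either (edgeR adjusted p = 0.266).

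SETDB1, which KRAB proteins reach through TRIM28, rose with siH2A.Z1 from 50.5 ± 0.779 CPM (SD, n = 4) to 70.9 and 78.3 CPM, a change of 0.56 (SE 0.09, edgeR adjusted p = 0.00575), and the call was lost without siH2A.Z1 replicate 2 (0.51, adjusted p = 0.0687). TRIM28 was at 203 to 230 CPM in the controls and at 203 and 181 CPM with siH2A.Z1, a change of -0.14 that did not pass (edgeR adjusted p = 0.326). Of 36 corepressor genes tested, 13.9% rose and 19.4% fell, near the 12.2% and 15.7% of all tested genes, with a median of -0.13. The rises included MPHOSPH8, MORC3 and DNMT3A, and the 7 falls were those of CHD3, UHRF1, EHMT1, EHMT2, ATRX, DAXX and TRIM24. Of these, the RNAs of ATRX and DAXX fell by 1.23 and 1.24 on the log2 scale, and their proteins were not measured here.

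With siH2A.Z2, 1 member rose and 0 fell in edgeR, where 0.605% of tested genes rose and 0.179% fell. At an unadjusted p under 0.05, 15 members (5.30%) were higher and 22 (7.77%) were lower, where 8.15% and 5.58% of tested genes were so, and DESeq2 called 3 up and 5 down, where it called 1.81% and 1.19% of genes. The median member had a log2 fold change of -0.03, and the median KRAB member -0.04. Both siH2A.Z2 libraries were above all 4 controls for 39 members and below them for 58, where 16.4% and 12.3% of tested genes were so. Among the 159 KRAB members these numbers were 14 and 39. Of the KRAB members 2.52% were higher and 8.18% lower at an unadjusted p under 0.05. The member that rose was ZNF532, which with ZNF592, ZNF687 and ZMYND8 forms the Z4 complex. It was at 92.3 and 94.3 CPM with siCtrl 3, 90.6 and 93.3 CPM with siCtrl 4, 99.6 and 116 CPM with siH2A.Z1, 166 and 168 CPM with siH2A.Z2, and 125 and 119 CPM in the combined depletion. Both siH2A.Z2 libraries were above the other 8 libraries. The change was 0.85 (SE 0.07, edgeR adjusted p = 0.0146), and its partners ZNF592 and ZNF687 had values of -0.02 and 0.04. Without either siCtrl 3 library, either siH2A.Z2 library or siCtrl 4 replicate 2 the change stayed at 0.82 to 0.86, while the adjusted p was 0.0688 to 0.433 and the call was lost. With siCtrl 3 alone as control 11 members rose and 13 fell, where 8.99% and 5.19% of tested genes did so, and with siCtrl 4 alone 36 rose and 39 fell, where 16.9% and 12.7% did so.

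In the combined depletion, 55 members rose and 11 fell against the controls, where 7.77% and 9.35% of tested genes did so. The median member had a change of 0.21. Of the KRAB members 45 rose and 1 fell (median 0.32), and of the members without KRAB 10 rose and 10 fell (median 0.11). The KRAB member that fell was ZNF514, at 51.5 to 54.3 CPM in the controls and 41.5 and 35.2 CPM in the combined depletion (log2 change -0.44, edgeR adjusted p = 0.0313). On chromosome 19, 29 of 116 members rose and 0 fell. Both combined libraries were above all controls for 131 members and below them for 30, where 24.2% and 24.8% of all tested genes were so placed. Leaving out replicate 1 or replicate 2 of the combined depletion removed the calls of members and most calls over all tested genes. The median member change was then 0.185 and 0.234. Without siCtrl 3 replicate 1, 35 members rose, and without siCtrl 4 replicate 2, 33 did, where 5.72% and 4.86% of tested genes rose. Leaving out siCtrl 3 replicate 1 gave 7 falls, leaving out its replicate 2 gave 6, and leaving out siCtrl 4 replicate 2 gave 5.

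The largest rises in the combined depletion were those of ZNF850 (1.14), ZNF699, ZNF221 (1.09), ZNF84 (1.07) and ZNF417. ZNF221, on chr19:43951223-43967709, was at 12.2 and 14.6 CPM with siCtrl 3, 10.6 and 10.9 CPM with siCtrl 4, 27.2 and 28.2 CPM with siH2A.Z1, 14.9 and 14.6 CPM with siH2A.Z2, and 24.0 and 26.8 CPM in the combined depletion. Its siH2A.Z1 and combined libraries lay at about the same level, well above the rest. ZNF460, the KRAB member with the highest control level, was at 143 to 158 CPM in the controls, 270 and 276 CPM with siH2A.Z1, 131 and 130 CPM with siH2A.Z2, and 227 and 224 CPM in the combined depletion (log2 changes of 0.87, -0.19 and 0.61). ZNF385A (-1.28), ZNF710, ZNF395, ZNF106 and ZNF365 (-0.62) had the largest falls. All 10 of these calls were lost when 1 of the combined libraries was left out.

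In the direct comparison of siH2A.Z1 with siH2A.Z2, the fold changes do not use the control libraries that chose the members, while the filter, the spread and so the p-values come from a fit of all 10 libraries. There 128 members were higher and 15 lower with siH2A.Z1, where 13.9% of tested genes were higher and 18.4% lower. Among KRAB members 98 of 159 were higher and 0 lower (median 0.55), and among members without KRAB 29 were higher and 15 lower (median 0.17). By unadjusted p under 0.05, 113 KRAB members were higher and 3 lower, and DESeq2 called 104 higher and 0 lower. All libraries of siH2A.Z1 were above those of siH2A.Z2 for 199 members and below for 40, where 36.2% and 38.6% of tested genes were so placed. The largest differences were those of ZNF548 (1.94, edgeR adjusted p = 8.43e-05), ZNF419 (1.46), ZNF841 (1.45), ZNF528 (1.38) and ZNF84. Without siH2A.Z2 replicate 1, 73 members were higher, and leaving out any 1 of the 4 libraries gave 7 to 9 lower members.

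ZNF419, whose promoter is printed above, was at 12.6 to 14.0 CPM in the controls, 30.5 and 32.0 CPM with siH2A.Z1, 11.5 and 11.3 CPM with siH2A.Z2, and 16.8 and 17.3 CPM in the combined depletion. ZNF528 was at 12.01 to 14.0 CPM in the controls, 26.3 and 32.0 CPM with siH2A.Z1, 11.3 and 11.1 CPM with siH2A.Z2, and 20.7 and 19.2 CPM in the combined depletion. For both genes the siH2A.Z2 libraries were below all controls and the combined libraries lay between the controls and siH2A.Z1. ZNF365 (-2.87), ZNF385A (-1.77), ZNF827, ZNF106 (-1.13) and ZNF608 (-0.85) had the largest differences in the other direction.

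Set directly against siH2A.Z1 alone, the combined depletion had 11 members lower and 4 higher, where 1.15% of tested genes were lower and 2.64% higher. The median member had a log2 difference of -0.18, and 207 of 283 had a value below 0. Of the KRAB members 9 were lower and 0 higher (median -0.24), and at an unadjusted p under 0.05 there were 55 lower and 1 higher. The lower members were ZNF548, ZNF772, ZNF419, ZNF239, ZNF334, ZNF330, ZNF550, ZNF587B, ZNF544, ZNF263 and ZNF274, and the higher ones were ZNF365, ZNF608, ZNF827 and ZNF618. In the last cluster of chromosome 19, 7 of 38 members were lower and 0 higher (median -0.32), and the other clusters of 10 or more members had medians of -0.25 to -0.18 with no called member. Leaving out any 1 of the 4 libraries removed the calls of lower members and most calls over all tested genes. The median member difference was then -0.201 to -0.147, against -0.0145 to 0.012 over all tested genes. DESeq2 on all libraries called 30 members lower, where it called 1.95% of tested genes.

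ZNF772, at chr19:57466663-57477570, was at 20.5 to 28.7 CPM in the controls, 53.6 and 53.3 CPM with siH2A.Z1, 22.3 and 21.2 CPM with siH2A.Z2, and 29.1 and 27.0 CPM in the combined depletion. The combined libraries overlapped the controls, and those with siH2A.Z1 alone were higher. The difference between the combined depletion and siH2A.Z1 was -0.93 (SE 0.16, edgeR adjusted p = 0.016). ZNF548 differed by -1.03 (edgeR adjusted p = 0.0169) and ZNF419 by -0.88. ZNF274 was at 35.9 to 37.0 CPM in the controls, 48.4 and 48.1 CPM with siH2A.Z1, 28.4 and 28.2 CPM with siH2A.Z2, and 37.0 and 33.9 CPM in the combined depletion. Its levels were thus highest with siH2A.Z1 and lowest with siH2A.Z2, with the combined libraries around the controls, and the combined depletion differed from siH2A.Z1 by -0.45 (edgeR adjusted p = 0.0294). In contrast, ZNF365 was 1.37 higher on the log2 scale in the combined depletion than with siH2A.Z1 (edgeR adjusted p = 0.00428), as was ZNF608, by 0.86.

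The combined depletion against siH2A.Z2 alone again compares libraries with and without the H2A.Z.1 siRNA. Its fold changes share no library with siH2A.Z1 against the controls, while its calls use the spread over all 10 libraries. It had 53 members higher and 6 lower, where 4.77% of tested genes were higher and 9.05% lower. Of the KRAB members 48 were higher and 0 lower (median 0.32), and of the members without KRAB 5 were higher and 6 lower. Of the 117 members that rose with siH2A.Z1, 50 (42.7%) were also higher here, and they made up 94.3% of the 53. Among all genes the corresponding shares were 31.6% and 80.0%. The 11 members that fell and the 6 that were lower here had 5 in common (45.5% and 83.3%). For falls among all genes these shares were 50.4% and 86.0%, both above those of the members. Across the 283 members, which are not independent of one another, the log2 values of both comparisons had a Pearson's r of 0.83 and a Spearman's rho of 0.81, and across all genes r was 0.79. Leaving out any 1 of the 4 libraries left fewer calls among members and among all tested genes. The median difference was then 0.191 to 0.275 for members, against -0.00265 to 0.0273 over all tested genes. For KRAB members the median was 0.302 to 0.421.

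Addition of the H2A.Z.2 siRNA can be read in the same way from siH2A.Z2 against the controls and from the combined depletion against siH2A.Z1. Here r was 0.38 and rho 0.37 over the 283 members, against 0.41 and 0.39 over all genes. With 1 member called in the first of these comparisons, at most 1 call could be shared, and none was. Whether the effect of one siRNA on the KRAB members differs in the presence of the other was not tested.

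The control siRNAs themselves differed in many members. With siCtrl 4, 35 members were higher and 49 lower than with siCtrl 3, where 17.2% of tested genes were higher and 17.3% lower. Among KRAB members 14 were higher and 29 lower, and among members without KRAB 20 were higher and 19 lower. ZNF114, a KRAB member on chr19:48270081-48287608, was at 9.57 and 11.3 CPM with siCtrl 3 but 39.0 and 37.1 CPM with siCtrl 4 (log2 difference 1.87, edgeR adjusted p = 4.48e-05), and every depletion library lay at 3.73 to 11.2 CPM. ZNF254 was at 15.2 and 17.8 CPM with siCtrl 3 and 6.501 and 7.11 CPM with siCtrl 4 (log2 difference -1.27). ZNF185, a LIM-domain protein of the actin cytoskeleton without C2H2 fingers, was at 86.0 and 82.5 CPM with siCtrl 3 and 219 and 209 CPM with siCtrl 4, and at 108 to 115 CPM in the 6 depletion libraries. For ZNF114 the siH2A.Z2 libraries (11.2 CPM each) lay within the range of siCtrl 3 and the other depletion libraries below it, and for ZNF185 all depletion libraries lay between the controls. ZNF146 and ZNF260, from one cluster on chromosome 19, were lower with siCtrl 4 by 1.05 and 1.06 on the log2 scale. The differences were counted with fewer libraries as 18 to 34 higher and 28 to 56 lower members, the lowest being 18 without siCtrl 3 replicate 2 and 28 without siCtrl 4 replicate 1. Without siCtrl 3 replicate 1 and siCtrl 4 replicate 2 the higher members numbered 19 and 21, and without siCtrl 3 replicate 2 the lower ones numbered 32. With siCtrl 3 alone as the control, 99 KRAB members rose and 3 fell with siH2A.Z1, where 22.4% and 25.4% of tested genes did so. With siCtrl 4 alone 116 KRAB members rose and 7 fell, where 25.0% and 28.0% of tested genes did so.

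Numbered ZNF genes below the threshold, which the rule left out, had 56 rises and 1 fall among 184 tested with siH2A.Z1 (median 0.41). Those with a KRAB box had 43 rises and 0 falls among 120 (median 0.52). These genes were set apart by low levels in the same controls, which can favour rises. Of 233 such genes 184 passed the filter on low counts, which the siH2A.Z1 libraries alone could meet. Other families carry zinc fingers under different symbols. The ZBTB genes, which pair fingers with a BTB domain, had 8 rises and 4 falls among 38 (median 0.13). The ZSCAN genes had 3 rises and 0 falls among 17 (median 0.32), and the ZFP genes 6 rises and 0 falls among 17 (median 0.44). Of all tested genes, 12.2% rose and 15.7% fell with siH2A.Z1. The 7 ZKSCAN genes are not reported here.

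For 5 members, 10% or more of the transcript also occurs in transcripts of other genes, so some reads may be hard to assign. They are ZNF286A (51.1%), ZNF417, ZNF322, ZNF587 and ZNF808, and 30 members overlap another counted gene on the same strand. Without these members, 34 in all, 102 rose and 8 fell with siH2A.Z1.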

How the data were processed

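Counts were deposited by the authors as 1 table of raw counts per gene for 10 libraries, made with STAR, SAMtools and HTSeq 0.6.1 on hg38 per the submitters' processing notes, using strand. The deposited tables of the authors' own comparisons (DESeq2 1.22.1: base means, fold changes, standard errors, statistics and p-values) were not used.

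Members and gene lists were chosen with earlier results of these data known. Tests used R 4.3.3 with edgeR 4.0.16 and limma 3.58.1 (quasi-likelihood F test, two-sided, TMM factors, filterByExpr), with DESeq2 1.42.0 as an alternative, and were tested on simulated data. Each depletion was fitted with the 4 controls as 1 group. Direct comparisons came from 1 fit of all libraries in 4 groups, and that of the controls from 1 fit in 5 groups. Calls needed an adjusted p under 0.05 and a fold change above 1.25. Depths of 16716990 to 26946836 counts and 2 libraries a group limit the precision, and an exact permutation test of 2 against 4 libraries cannot go below p = 0.0667.

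Positions, transcript lengths, GC content and coding sequences came from GENCODE 44 (283 of 283 members matched), translated for C2H2 fingers and for a KRAB profile (34 residues built from 217 proteins, at least 20 bits, in the first 300 residues). This replaced the planned RefSeq proteins, not used here. Shared sequence was measured with 64-mers. Promoters were from RefSeq.

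The text names, per comparison, the 5 largest rises and falls among called members without overlap between libraries, the 5 highest members, 3 on each side of the threshold, members of a list of known roles, and TRIM28, SETDB1, H2AFZ and H2AFV. Members outside this rule (ZNF26, ZNF460, ZNF587 and complete lists of called members) were named after their values were seen. Python 3.11.15 with numpy 2.4.6, pandas 2.3.3, scipy 1.17.1 and matplotlib 3.10.9 was used for summaries and figures. Alternatives were other scalings, filters, tools, controls, member thresholds, a replicate block and leaving out each library. Some results on the corepressor list are not reported here.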

Additional observations from a re-analysis of the deposited data

Results flagged for a closer look

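For 75 named genes, the gap between the most distant of the 4 control libraries and its nearest neighbour was divided by the range of the 4, and 4 genes had a control library standing far apart by this measure, where chance alone gives about 1 group in 20. ZNF419 was at 12.6 CPM in siCtrl 4 replicate 2 and at 13.8 to 14.0 CPM in the other controls (ratio 0.869). ZNF451, a SUMO ligase, was at 171 CPM in siCtrl 4 replicate 2 and at 156 to 158 CPM in the others (ratio 0.875). ZNF606 was at 9.25 CPM in siCtrl 3 replicate 2 and at 10.74 to 10.998 CPM in the others (ratio 0.852). TRIM28 was at 230 CPM in siCtrl 4 replicate 1 and at 203 to 208 CPM in the others (ratio 0.834).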

How the results depend on the processing

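No named gene reversed its direction in any alternative run. For siH2A.Z1 against the controls, leaving out 1 library gave 24 to 110 members up and 5 to 12 down. Restricting members to 20 CPM, which leaves fewer of them, gave 73 up. Members down numbered 21 in 1 fit of 5 groups, 23 with siCtrl 3 alone and 27 with siCtrl 4 alone. There 24.8%, 25.4% and 28.0% of tested genes fell. For siH2A.Z2, leaving out 1 library gave 0 to 1 up and 0 to 0 down. DESeq2 gave 3 up and 5 down, 1 fit of 5 groups 22 and 22, siCtrl 3 alone 11 and 13, and siCtrl 4 alone 36 and 39. In the fit of 5 groups 11.9% of tested genes rose and 6.56% fell. For the combined depletion, leaving out 1 library gave 0 to 52 up and 0 to 9 down. Here 1 fit of 5 groups gave 106 up and 18 down, where 19.7% and 19.8% of tested genes were so. With siCtrl 3 alone there were 101 and 23 (18.4% and 20.3% of tested genes). With siCtrl 4 alone there were 108 and 35 (23.9% and 24.1%). Members at 20 CPM gave 34 up, and library size only gave 6 down, where 7.5% of tested genes fell. The combined depletion against siH2A.Z1 had 30 members down in DESeq2 and 7 without the filter, with 0 to 1 up and 0 to 0 down on leaving out 1 library. On leaving out 1 library, siH2A.Z1 against siH2A.Z2 gave 73 to 113 up and 7 to 9 down, the combined depletion against siH2A.Z2 11 to 21 up and 3 to 4 down, and siCtrl 4 against siCtrl 3 18 to 34 up and 28 to 56 down. Smaller control groups and fewer libraries change the estimate of the spread by construction, and at 20 CPM fewer members are left to be called. In each comparison of a depletion, leaving out 1 of its libraries also left fewer calls over all tested genes. The causes of the other moves were not tested.

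Scaling by library size alone moved the median of all genes with siH2A.Z1 by 0.10, from -0.02 to 0.08, and the share of calls that were up from 43.8% to 56.7%. It gave 140 members up and 10 down, with a median member at 0.47. For siH2A.Z1 against siH2A.Z2 the share went from 43.1% to 55.0%, for the combined depletion against the controls from 45.4% to 59.1%, and against siH2A.Z2 from 34.5% to 53.0%.

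The libraries share only a replicate number. Replicate differences correlated at 0.169 to 0.515 in the 6 pairs of groups without the combined depletion and at -0.472 to -0.115 in the 4 pairs with it, so the numbers were not taken as pairs across all groups. With a replicate block, siH2A.Z1 had 96 members up and 10 down, siH2A.Z2 0 up, the combined depletion 15 up and 3 down against the controls, and 5 down against siH2A.Z1. Of 20 named calls in the combined depletion against the controls, 12 were lost with it.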
